A study of Mus musculus with 6 samples.

Results

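The genes described here encode the proteins of the mitochondrial ribosome. They are the rows of the deposited count table whose symbol begins with Mrpl or Mrps and a number, pseudogene symbols left out, with at least 10 reads in at least 3 libraries. All 76 matching symbols met that minimum, of 23337 genes in the table and 14222 tested. By symbol 47 belong to the large subunit (Mrpl) and 29 to the small subunit (Mrps). All subunit counts and sums below follow the symbols. Those of the small subunit therefore include Mrps18a, Mrps30 and Mrps36, whose products are placed elsewhere. RNA was sequenced from primary mouse cells, the sinusoidal endothelial cells that form the porous lining of liver capillaries. They had been purified with antibody-coated magnetic beads, plated on collagen IV and deprived of serum. In the stretch group (replicates 1, 2 and 4) a Flexcell device, which deforms the membrane under the cells, applied 4% cyclic stretch at 1 Hz, and the control group (replicates 2, 3 and 4) was left unstretched. The labels give no genotype, strain, age or duration of stretch, and they do not say whether libraries came from separate animals or cultures, so the p-values below measure the spread between these libraries, which may be technical.

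Mitochondria keep their own small genome, whose messenger RNAs code for core subunits of the respiratory chain and ATP synthase, and their own ribosome to translate it. The ribosomal RNAs come from that genome, but every protein of the particle is encoded in the nucleus, made in the cytosol and imported. Many of these proteins descend from bacterial ribosomal proteins, and others are found only in mitochondria.

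Total gene counts lay between 58503669 and 68489956 in stretch libraries and between 48948948 and 57923937 in control libraries. The members had between 464 and 4731 counts in a library. Markers of sinusoidal endothelium were detected for 13 of 14 listed genes and summed to between 6612 and 7850 CPM (counts scaled to a common library size with TMM factors) in stretch and between 9003 and 10365 CPM in control libraries, with 9 of the 13 called lower and 0 higher. Markers of endothelium in general summed to 8022 to 8655 CPM in stretch and 8607 to 9557 CPM in control libraries, with 6 of 10 called lower and 0 higher. Of the 15 hepatocyte markers 12 rose, with sums of 188 to 909 CPM in stretch and 65.4 to 128 CPM in control libraries, and stretch replicate 1 was the highest. Of the 12 macrophage markers tested 10 rose (115 to 160 CPM in stretch, 80.5 to 95.7 CPM in control libraries), and of 6 cholangiocyte markers 3 rose (143 to 167 CPM in stretch, 81.8 to 108 CPM in control libraries). Stellate cell and fibroblast markers summed to 69.96 to 115 CPM in stretch and 85.7 to 97.7 CPM in control libraries. Of the 11 tested 1 was called higher and 0 lower. Lymphocyte markers stayed under 1 CPM, with Cd3g, Cd8a, Ms4a1 and Nkg7 at 0 counts. In bulk RNA, fewer cells of a type and less RNA per cell cannot be told apart.

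The comparison asked how transcripts differ between stretched and unstretched cells. Of the 76 members 26 rose and 3 fell in stretched cells, and 47 did not pass an adjusted p of 0.05 (edgeR quasi-likelihood test, Benjamini-Hochberg adjustment over all 14222 genes). Without control replicate 4, 1 member was called lower. Over all genes tested 21.4% were called higher and 22.6% lower, 44.0% in all. With library size alone as scaling, 12 members were called higher and 9 lower, against 14.7% and 30.2% of all genes. The 14 that then lost a call as higher were Mrps2, Mrps7, Mrps14, Mrps27, Mrps30, Mrpl1, Mrpl12, Mrpl20, Mrpl33, Mrpl37, Mrpl38, Mrpl45, Mrpl52 and Mrpl54. Against a minimum change of 1.2-fold (glmTreat), 4 members were called higher and 0 lower, against 8.51% and 9.33% of all genes. Members were called in 38.2% of cases, 34.2% higher and 3.95% lower, so the total share was near that of all genes and most called members were on the higher side. The changes were small: the median log2 fold change was 0.12 over the members and -0.01 over all genes, and no member changed 2-fold, whereas 867 of all genes did. With library size alone the 2 medians were 0.03 and -0.11, and the difference between them was 0.14 under both scalings.

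The summed level of the members was 2170, 2173 and 2261 CPM in stretch replicates 1, 2 and 4, against 1929, 2044 and 1971 CPM in control replicates 2, 3 and 4. With this TMM scaling each stretch library was above each control library. With library size alone stretch replicate 1 lay below control replicate 3, and the ratio of stretch to control means was 1.04 rather than 1.11. The means were 2201 ± 51.6 CPM in stretch and 1981 ± 58.1 CPM in control libraries (SD, n = 3 each). Without Mrpl17 and Mrps18b, which had the largest increases, the means were 2055 ± 45.7 CPM in stretch and 1892 ± 53.5 CPM in control libraries. Large subunit genes summed to 1427 ± 29.5 CPM in stretch and 1270 ± 34.8 CPM in control libraries, and small subunit genes to 775 ± 24.1 CPM in stretch and 712 ± 23.5 CPM in control libraries.

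**Figure D1:**
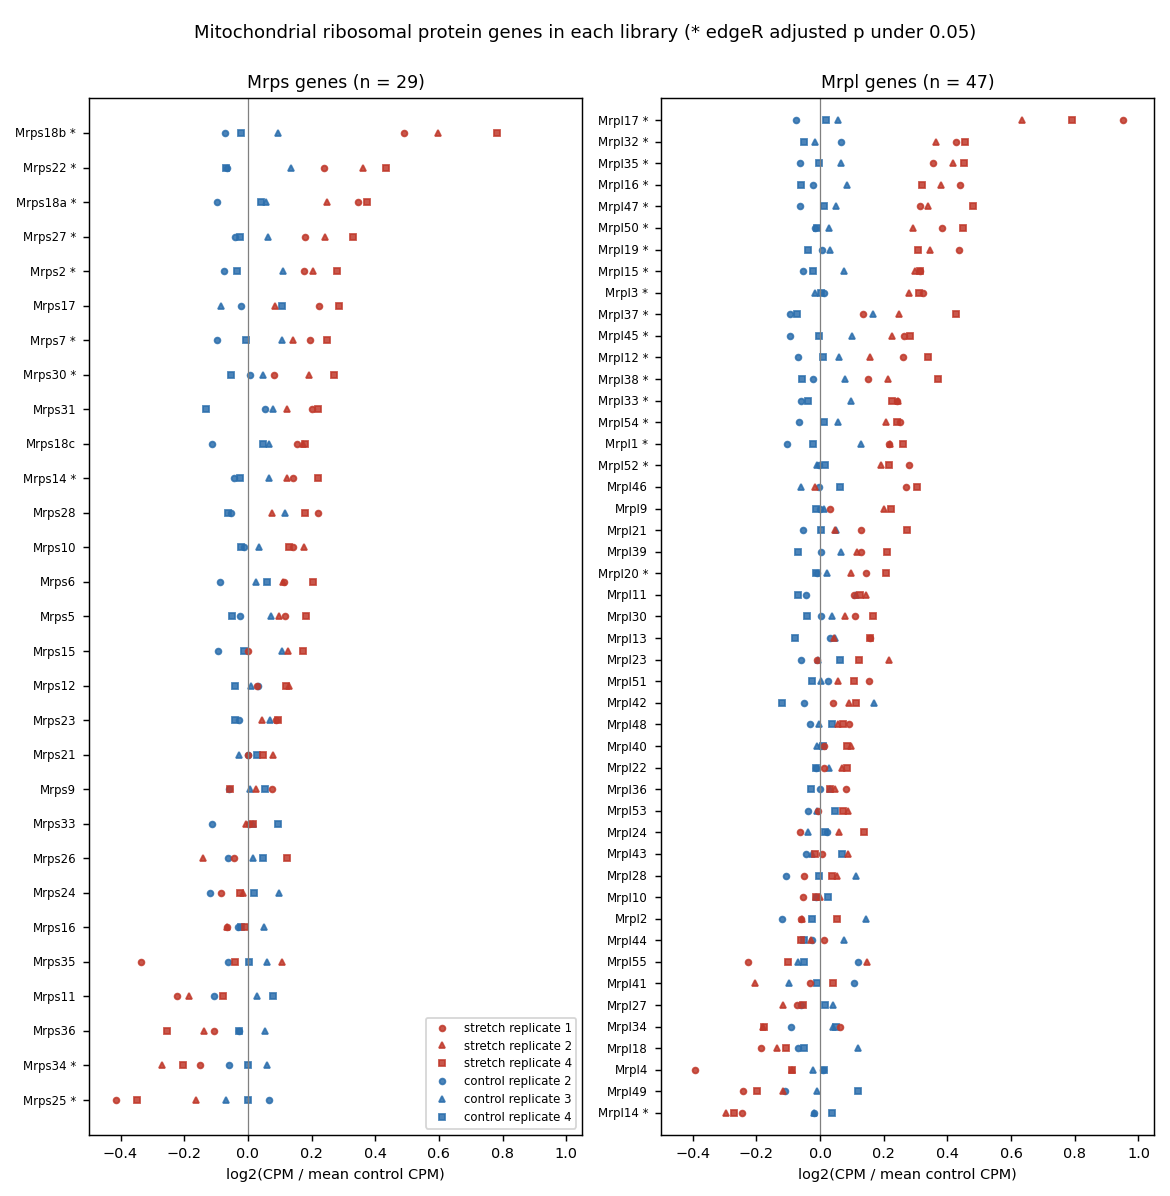
Level of each member in each library, as log2 of its TMM-scaled CPM over the mean of the control libraries, for 29 Mrps genes (left) and 47 Mrpl genes (right), ordered by fold change. Red points are stretch and blue points control libraries, and a star marks an edgeR adjusted p under 0.05. Mrpl17 and Mrps18b lie farthest to the right, and most other members shift by less than 0.5. With library size alone as scaling, 44 rather than 57 members had a positive fold change.

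For 44 members every stretch library lay on 1 side of every control library, 37 with the stretch libraries higher and 7 with them lower. Over all genes 26.7% were apart on the higher side and 29.2% on the lower side, 55.9% in all. The 37 included 25 of the 26 members called higher (all but Mrpl37) and 12 that were not called. Stretch replicate 4 had the highest level of the stretch libraries for 42 members, and stretch replicates 1 and 2 for 17 each. The hepatocyte markers were highest in stretch replicate 1, and without that library 23 members were called higher and 3 lower, with a median log2 fold change of 0.14. The hepatocyte, macrophage and cholangiocyte markers summed higher, and the sinusoidal markers lower, in every stretch library than in every control library, and their part in the members' changes was not tested.

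Mrpl17 encodes a large subunit protein with a bacterial counterpart and lies on chromosome 7 (105803782 to 105811087, GRCm38). It was at 84.8, 68.1 and 75.9 CPM in stretch replicates 1, 2 and 4, against 41.6, 45.6 and 44.5 CPM in control replicates 2, 3 and 4. The groups were well apart, and stretch replicate 1 was the highest. The mean was 76.3 ± 8.36 CPM in stretch and 43.9 ± 2.06 CPM in control libraries (SD, n = 3 each), a 1.74-fold increase (log2 fold change 0.80 ± 0.08 SE, edgeR adjusted p = 0.000160). Without stretch replicate 1 the log2 fold change was 0.72. The gene model used by the authors is 6712 bases long, the longest of the family, and in the GENCODE M21 annotation its exons overlap those of no other gene.

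Mrps18b is 1 of 3 mammalian genes derived from a single bacterial small subunit protein, with Mrps18a and Mrps18c. On chromosome 17 (35910385 to 35916369), it was at 64.0, 69.0 and 78.4 CPM in stretch replicates 1, 2 and 4, against 43.4, 48.7 and 44.9 CPM in control replicates 2, 3 and 4. Stretch replicate 4 was the highest library and stretch replicate 1 the lowest of its group, still above every control library. The increase was 1.54-fold (log2 fold change 0.63 ± 0.08 SE, edgeR adjusted p = 0.000461), and the log2 fold change was 0.54 without stretch replicate 4 and 0.70 without stretch replicate 1. In the GENCODE M21 annotation 30.5% of its exonic bases are shared with non-coding genes. Mrps18a, whose product is found in the large subunit in mammals, was at 26.9, 25.1 and 27.4 CPM in stretch libraries, against 19.8, 21.97 and 21.7 CPM in control libraries (replicates in the same order). It rose 1.25-fold (log2 fold change 0.32 ± 0.07 SE, edgeR adjusted p = 0.00448). Mrps18c had 20.6, 20.8 and 20.9 CPM in stretch libraries, against 17.1, 19.4 and 19.1 CPM in control libraries. Its ranges did not overlap either, but with a log2 fold change of 0.17 ± 0.07 (SE) it did not pass (edgeR adjusted p = 0.0714). The differences between the fold changes of the 3 paralogs were not tested.

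**Figure D2:**
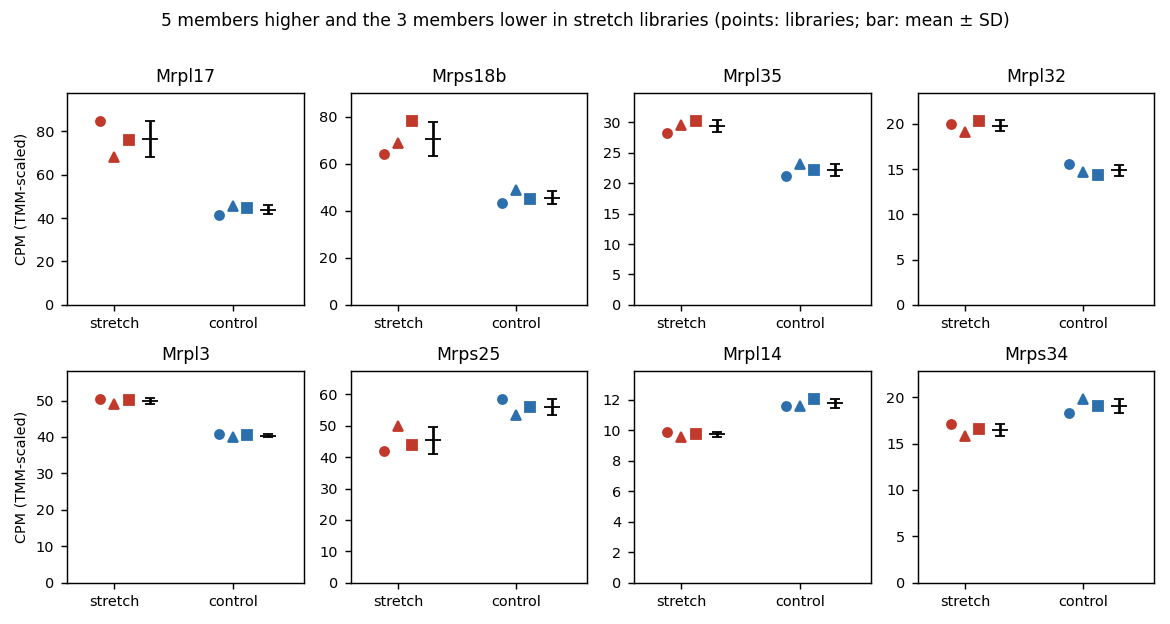
TMM-scaled CPM of 8 members in each library, stretch left of control, with the mean and SD beside the points (circles, triangles and squares are stretch replicates 1, 2 and 4 and control replicates 2, 3 and 4). Mrpl17, Mrps18b, Mrpl35, Mrpl32 and Mrpl3 were higher in every stretch library than in every control library, and Mrps25, Mrpl14 and Mrps34 were lower in every stretch library.

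The promoters of the members with the largest increase in each subunit, of Mrpl35, and of Mrps25, which fell the most, are shown as read from RefSeq (GRCm38.p6), from 250 bases before to 50 bases after the annotated start. Capitals mark matches, on either strand, to CCGGAAG (the core bound by ETS factors such as GABP), the consensus of NRF1, AAGATGGCG (bound by YY1) and CACGTG (the E-box bound by MYC). GABP, NRF1 and YY1 are known activators of nuclear genes for mitochondrial proteins.
Mrpl17 promoter, chr7:105811038-105811337, minus strand: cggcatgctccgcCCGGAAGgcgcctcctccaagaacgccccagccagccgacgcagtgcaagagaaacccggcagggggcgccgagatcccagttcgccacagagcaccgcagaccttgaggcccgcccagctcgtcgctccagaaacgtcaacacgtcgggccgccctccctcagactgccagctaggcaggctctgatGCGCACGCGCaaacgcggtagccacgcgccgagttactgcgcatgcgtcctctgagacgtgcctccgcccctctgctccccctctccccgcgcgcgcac
Mrps18b promoter, chr17:35916391-35916690, minus strand: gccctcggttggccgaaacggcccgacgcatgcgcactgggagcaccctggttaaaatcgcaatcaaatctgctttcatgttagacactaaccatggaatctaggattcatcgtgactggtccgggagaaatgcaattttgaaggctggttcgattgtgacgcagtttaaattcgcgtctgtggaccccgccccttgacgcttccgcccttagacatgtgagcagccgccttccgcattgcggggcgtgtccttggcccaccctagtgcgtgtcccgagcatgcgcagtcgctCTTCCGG
Mrpl35 promoter, chr6:71823735-71824034, minus strand: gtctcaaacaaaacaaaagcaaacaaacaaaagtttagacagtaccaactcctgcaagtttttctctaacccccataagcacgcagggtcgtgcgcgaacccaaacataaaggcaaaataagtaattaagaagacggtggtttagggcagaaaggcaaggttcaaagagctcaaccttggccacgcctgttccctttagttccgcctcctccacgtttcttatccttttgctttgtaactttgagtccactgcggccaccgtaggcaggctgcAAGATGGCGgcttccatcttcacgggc
Mrps25 promoter, chr6:92183974-92184273, minus strand: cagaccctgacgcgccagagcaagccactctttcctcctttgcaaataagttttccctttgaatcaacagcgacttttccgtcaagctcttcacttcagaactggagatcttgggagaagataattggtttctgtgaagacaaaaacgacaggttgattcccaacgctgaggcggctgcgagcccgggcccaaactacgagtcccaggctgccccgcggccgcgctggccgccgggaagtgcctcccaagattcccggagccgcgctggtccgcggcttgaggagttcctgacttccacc
The Mrpl17 window held 1 ETS core and 1 NRF1 match on the opposite strand, and the Mrpl35 window 1 YY1 match after the start. The Mrps18b window held 1 ETS core on the opposite strand after the RefSeq start. That whole window lies upstream of the start of the authors' gene model, at 35916369. The Mrps25 window held none of these letters.

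RefSeq promoter windows were matched by symbol for 67 members, with 73 windows. Mrpl4, Mrpl13, Mrpl15, Mrpl19, Mrpl38, Mrpl54, Mrps28, Mrps34 and Mrps35 were not used here. The ETS core was in 32.9% of member windows, against 15.8% of the windows of all genes tested and 8.86% of all windows in the table. The NRF1 consensus was in 16.4% of member windows, against 9.04% for genes tested and 4.603% for all windows. The YY1 letters were in 10.96% of member windows, against 2.64% for genes tested and 1.40% for all windows. The E-box was in 9.59% of member windows, against 9.66% for genes tested and 7.15% for all windows. These shares are per window and not per gene. Overlapping windows of the same gene were counted separately, among them those of Mrpl2, which all held the E-box. Among the 22 windows of members called higher, 8 held the ETS core, 4 the NRF1 consensus, 4 the YY1 letters and 2 the E-box. Among the 51 other member windows, 16 held the ETS core, 8 the NRF1 consensus, 4 the YY1 letters and 5 the E-box, with the overlapping Mrpl2 windows among the 5. A match describes the letters of the window and not a binding event.

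Of the 47 large subunit genes 18 rose and 1 fell, with a median log2 fold change of 0.12 (9 and 5, and 0.03, with library size alone; 2 fell without control replicate 2 and 0 without control replicate 4). Those with a bacterial counterpart numbered 29, of which 12 rose and 1 fell (8 and 4 with library size alone). Mrpl35 was at 28.3, 29.5 and 30.3 CPM in stretch replicates 1, 2 and 4, against 21.2, 23.2 and 22.1 CPM in control replicates 2, 3 and 4. Mrpl32, whose product is matured by the m-AAA protease before assembly into the ribosome, was at 19.98, 19.1 and 20.3 CPM in stretch libraries, against 15.5, 14.7 and 14.4 CPM in control libraries. Both had groups that did not overlap and rose 1.33-fold, with log2 fold changes of 0.41 ± 0.06 for Mrpl35 and 0.41 ± 0.06 for Mrpl32 (SE; edgeR adjusted p = 0.000823 and 0.00118). Mrpl3, which reaches toward the peptidyl transferase centre, was nearly constant within each group: 50.5, 49.04 and 50.1 CPM in stretch libraries, against 40.8, 39.98 and 40.4 CPM in control libraries. Its increase was 1.23-fold (log2 fold change 0.30 ± 0.04 SE, edgeR adjusted p = 0.000716). Mrpl16 was at 12.3, 11.8 and 11.3 CPM in stretch libraries, against 8.91, 9.59 and 8.67 CPM in control libraries, a 1.30-fold increase (log2 fold change 0.38 ± 0.08 SE). Mrpl12, part of the flexible stalk that recruits translation factors and also a binding partner of the mitochondrial RNA polymerase, was at 55.1, 51.4 and 58.2 CPM in stretch libraries, against 43.9, 48.02 and 46.3 CPM in control libraries. It rose 1.19-fold (edgeR adjusted p = 0.00954), and with library size alone it missed the threshold (adjusted p = 0.0557; 0.00161 to 0.652 over all alternatives).

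Others of this class that rose were Mrpl19 (log2 fold change 0.36), Mrpl15 (0.31), Mrpl33 (0.24), Mrpl1 (0.23), Mrpl20 (0.15) and Mrpl47 (0.38), whose product sits at the exit of the polypeptide tunnel. Of the 17 mitochondria-specific large subunit genes 6 rose and 0 fell by edgeR (1 and 1 with library size alone), with 0 lower by DESeq2 and by limma-voom as well. At an unadjusted p under 0.05, 1 was lower: Mrpl49 (edgeR adjusted p = 0.0748, log2 fold change -0.19), and 1 was called lower without control replicate 2. Mrpl50 was at 39.1, 36.7 and 40.96 CPM in stretch libraries, against 29.7, 30.5 and 29.8 CPM in control libraries, with no overlap and a 1.30-fold increase (log2 fold change 0.38 ± 0.06 SE, edgeR adjusted p = 0.000950). Mrpl45, which tethers the ribosome to the inner membrane at the tunnel exit, was at 36.998, 36.05 and 37.5 CPM in stretch libraries, against 28.9, 33.02 and 30.7 CPM in control libraries (log2 fold change 0.26 ± 0.06 SE), and it missed the threshold with library size alone (edgeR adjusted p = 0.0666; 0.00225 to 0.638 over all alternatives). Mrpl37, Mrpl38, Mrpl52 and Mrpl54 rose with log2 fold changes of 0.27, 0.25, 0.23 and 0.23. Mrpl55, which did not pass (log2 fold change -0.05), was assigned neither to this class nor to the genes with a bacterial counterpart. Mrps36 was likewise assigned to neither.

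Of the 29 genes with small subunit symbols 8 rose, Mrps18a and Mrps30 among them, and 2 fell. Their median log2 fold change was 0.13 (3 and 4, and 0.04, with library size alone). The 18 with a bacterial counterpart, the Mrps18 paralogs among them, included 5 that rose and 0 that fell by edgeR (2 and 1 with library size alone), with 0 lower by DESeq2, by limma-voom and at an unadjusted p under 0.05. Mrps2, Mrps7 and Mrps14 rose with log2 fold changes of 0.22, 0.19 and 0.16. Of the 10 mitochondria-specific genes 3 rose and 2 fell (1 and 2 with library size alone). Mrps22 was at 16.2, 17.6 and 18.5 CPM in stretch replicates 1, 2 and 4, against 13.1, 15.05 and 13.05 CPM in control replicates 2, 3 and 4. It rose 1.27-fold (log2 fold change 0.34 ± 0.09 SE, edgeR adjusted p = 0.0114). Mrps27, a pentatricopeptide repeat protein of the small subunit, was at 37.2, 38.9 and 41.3 CPM in stretch libraries, against 31.97, 34.3 and 32.3 CPM in control libraries, without overlap (log2 fold change 0.25 ± 0.06 SE, edgeR adjusted p = 0.00798). Mrps27 missed the threshold with library size alone (adjusted p = 0.0646; 0.00190 to 0.667 over all alternatives). Mrps30, a large subunit protein in spite of its symbol, was the third that rose (log2 fold change 0.18).

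The small subunit count depended on single libraries: 4 of its genes were called higher when control replicate 2 was left out, 5 when control replicate 4 was, and 4 when stretch replicate 4 was. Of its genes with a bacterial counterpart 2 were called higher when control replicate 2 or stretch replicate 4 was left out, and 3 when control replicate 4 or stretch replicate 1 was. Each of control replicates 3 and 4 and stretch replicates 2 and 4, left out alone, left 1 small subunit gene called lower. Mrpl1, Mrpl20, Mrpl37, Mrpl38, Mrps2, Mrps7, Mrps14 and Mrps30 each lost their calls when control replicate 2, control replicate 4 or stretch replicate 4 was left out, with edgeR adjusted p between 0.0592 and 0.152 (0.000485 to 1.00 over all their alternatives). Mrpl20 and Mrps30 lost them without control replicate 3 as well, Mrpl1, Mrpl20, Mrps7 and Mrps14 without stretch replicate 1, and Mrpl1, Mrpl37 and Mrps30 without stretch replicate 2 (adjusted p up to 0.0786). The other 18 members called higher were called whichever library was left out.

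Mrps25, Mrps34 and Mrpl14 were the 3 members that fell. Mrps25, a mitochondria-specific small subunit protein (chromosome 6, 92169523 to 92184023), was at 42.0, 50.03 and 43.96 CPM in stretch replicates 1, 2 and 4, against 58.6, 53.4 and 56.01 CPM in control replicates 2, 3 and 4. The groups did not overlap, and the log2 fold change was -0.30 ± 0.07 (SE, edgeR adjusted p = 0.00897). Mrpl14 has a bacterial counterpart and binds the assembly factor MALSU1. It was at 9.92, 9.59 and 9.76 CPM in stretch libraries, against 11.6, 11.6 and 12.1 CPM in control libraries (log2 fold change -0.27 ± 0.07 SE, edgeR adjusted p = 0.0163). Mrps34, mitochondria-specific, was at 17.1, 15.8 and 16.5 CPM in stretch libraries, against 18.3, 19.8 and 19.05 CPM in control libraries (log2 fold change -0.21 ± 0.06 SE, edgeR adjusted p = 0.0302). Leaving out control replicate 4 took away the calls of Mrpl14 (edgeR adjusted p = 0.0527; 0.00513 to 0.538 over all alternatives) and Mrps34, and Mrps34 also lost its call without control replicate 3, stretch replicate 2 or stretch replicate 4 (adjusted p between 0.0673 and 0.0983; 0.00615 to 0.926 over all alternatives). DESeq2 did not call Mrps34 either (adjusted p = 0.0836).

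The exons of each of these 3 overlap those of another protein-coding gene in GENCODE M21. No source used here gives the strand setting of the authors' counting. Whether the counts of these members include reads of the partners is therefore not known. Mrps25 shares 4590 bases with Nr2c2 on the opposite strand, so that 69.8% of its exonic bases in this annotation are shared. Nr2c2, a nuclear receptor, itself fell, to 69.6 CPM in stretch against 97.6 CPM in control libraries (log2 fold change -0.49, edgeR adjusted p = 0.00381). Mrps34 shares 1309 bases with Mapk8ip3 on the opposite strand and 763 bases with Nme3 on its own strand. Of its 2064 exonic bases in GENCODE M21 77.8% are shared, but the authors' gene model of Mrps34 is only 898 bases long. The authors' models of Mrps25 and Mrpl14 are also shorter than in GENCODE M21. How much of the counted bases is shared was not computed. Nme3 was scarce and fell, to 2.21 CPM in stretch against 3.07 CPM in control libraries (log2 fold change -0.47, edgeR adjusted p = 0.0337), and Mapk8ip3 did not pass, at a log2 fold change of 0.06. Mrpl14 shares 106 bases with Tmem63b on the opposite strand, which did not pass, at a log2 fold change of 0.08. Of the 76 members 23 have such an overlap, 4 of them called higher and 3 lower. Without control replicate 2, control replicate 4 or stretch replicate 4, 2 of the 23 were called higher, and 1 was called lower without control replicate 4. Of the 53 without an overlap with a coding gene, 22 were called higher and 0 lower by edgeR, with a median log2 fold change of 0.15. None was lower by DESeq2, by limma-voom or at an unadjusted p under 0.05. With library size alone 10 of the 53 were called higher and 2 lower, with a median of 0.06. Of the 23 with an overlap, 2 were then called higher and 7 lower. Shares over all genes were 21.4% higher and 22.6% lower with TMM, and 14.7% and 30.2% with library size alone. Some of the 53, such as Mrps18b and Mrps27, share exonic bases with non-coding genes. The part of the overlaps in these counts was not tested.

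The 47 members that did not pass had log2 fold changes between -0.19 and 0.20, 31 above 0 and 16 below. Closest to the threshold on the higher side were Mrps10, Mrpl39 and Mrpl9 (edgeR adjusted p = 0.0531, 0.0609 and 0.0612), singled out after their values were seen. Mrps9, Mrps26, Mrps33, Mrpl2, Mrpl10, Mrpl28, Mrpl43 and Mrpl44 lay within 0.03 of a log2 fold change of 0. Mrps36, which is known as a component of the 2-oxoglutarate dehydrogenase complex in spite of its symbol, was at 10.03, 9.81 and 9.05 CPM in stretch libraries, against 10.6, 11.2 and 10.6 CPM in control libraries. Its groups did not overlap, but the log2 fold change of -0.17 ± 0.08 (SE) did not pass (edgeR adjusted p = 0.131). It passed as lower with library size alone (adjusted p = 0.0372; 0.0372 to 1.00 over all alternatives). The authors' deposited table called 22 members higher and 1 lower at an FDR under 0.05, where 12.3% and 12.2% of all its genes were called higher and lower, and its log2 fold change had the same sign as the edgeR fit for all 76.

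Levels between members can be compared per length only, with the authors' RPKM values (read counts scaled by the deposited gene length and by the size of the library). In control libraries the members ranged from 3.60 RPKM for Mrpl1 to 83.98 RPKM for Mrpl33. Their median was 20.4 RPKM in control libraries, against a median of 6.95 RPKM for all genes tested. In stretch libraries the members' median was 20.2 RPKM. Differences between the groups in RPKM need not equal those in TMM-scaled CPM. The 80% of members in the middle spanned a 4.17-fold range. Mrpl33 averaged 93.1 ± 2.21 RPKM in stretch and 83.98 ± 5.64 RPKM in control libraries, and Mrpl52 68.8 ± 1.53 RPKM in stretch and 62.4 ± 1.45 RPKM in control libraries (SD, n = 3 each). Mrpl1 was the lowest in both groups, at 3.97 ± 0.08 RPKM in stretch and 3.60 ± 0.33 RPKM in control libraries. Mrpl41, at 4.75 ± 0.33 RPKM in stretch and 5.28 ± 0.32 RPKM in control libraries, and Mrpl19, at 5.27 ± 0.23 RPKM in stretch and 4.35 ± 0.10 RPKM in control libraries, were also low. Mrpl1 and Mrpl19 have gene models of 4170 and 5000 bases, Mrpl33 and Mrpl52 of 466 and 412 bases, and a long model lowers an RPKM value where reads fall on a shorter transcript. Of the 38 members above the family's median CPM in control libraries 18 were called higher and 1 lower, and of the other 38 members 8 were called higher and 2 lower. With library size alone 5 of the first 38 were called higher and 3 lower, and 7 of the second 38 were higher and 6 lower. The shares over all genes were 21.4% higher and 22.6% lower with TMM, and 14.7% and 30.2% with library size alone. Without control replicate 2, control replicate 4 or stretch replicate 4, 11 of the first 38 were called higher. Of the second 38, 1 was called lower without control replicate 3, stretch replicate 2 or stretch replicate 4, and 0 without control replicate 4.

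**Figure D3:**
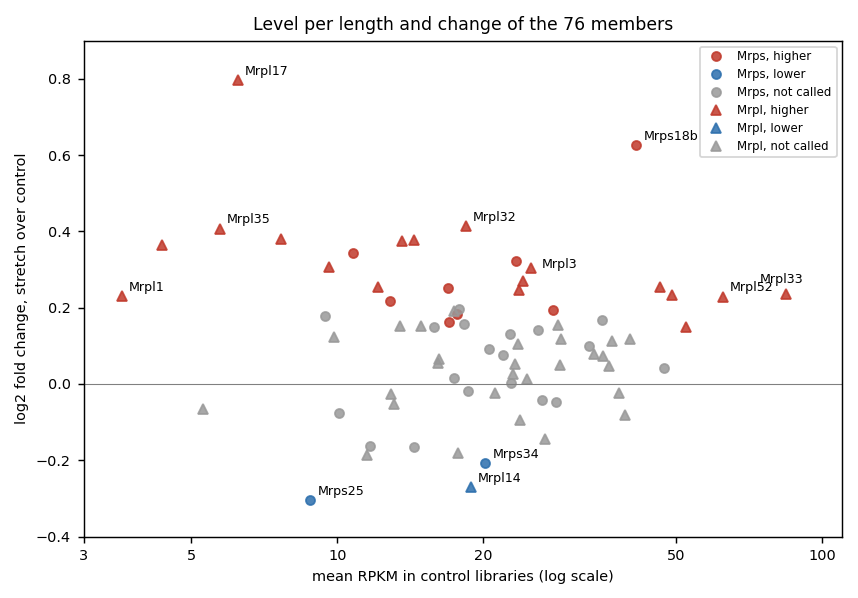
Mean RPKM in control libraries (log scale, the authors' values) against the edgeR log2 fold change of stretch over control for the 76 members, with circles for Mrps and triangles for Mrpl genes. Red and blue points passed as higher and lower, and grey points did not pass. Mrpl17 lies at 6.24 RPKM and Mrps18b at 41.3 RPKM, and the 3 members that fell lie between 8.80 and 20.2 RPKM. With library size alone as scaling 12 were called higher and 9 lower.

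In GENCODE M21, 17 of the 76 members (22.4%) have an oppositely oriented protein-coding gene that starts up to 1000 bases upstream of their own start. The share was 9.56% of the protein-coding genes tested. Pairs whose starts overlap, such as Mrps11 and Mrpl46, were not counted in either share. Of the 17 members 6 were called higher and 1 lower (2 lower without control replicate 2, and 0 without control replicate 3, control replicate 4, stretch replicate 2 or stretch replicate 4). With library size alone 3 of the 17 members were called higher and 2 lower. Of the 16 partners that were tested 1 was called higher and 6 lower, with a median log2 fold change of -0.23. The shares over all genes tested were 21.4% higher and 22.6% lower, with a median of -0.01. Mrps18b starts 45 bases from Ppp1r10, a regulatory subunit of protein phosphatase 1, which did not pass (log2 fold change -0.02, edgeR adjusted p = 0.875). Mrpl32 starts 75 bases from Psma2, a proteasome subunit gene, the 1 partner that rose (log2 fold change 0.18, edgeR adjusted p = 0.00990). Mrpl50 starts 83 bases from Zfp189, which fell (log2 fold change -0.33, edgeR adjusted p = 0.0165).

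Proteins of the mitochondrial ribosome listed under other symbols numbered 7: 3 rose, 0 fell by edgeR and 4 did not pass (2 and 0 with library size alone). The 3 were Ptcd3 and Chchd1, of the small subunit, with log2 fold changes of 0.25 ± 0.06 and 0.31 ± 0.07 (SE), and Gadd45gip1, of the large subunit, with 0.19 ± 0.05. Dap3, a GTP-binding small subunit protein, averaged 45.6 ± 2.68 CPM in stretch and 45.5 ± 2.52 CPM in control libraries (SD, n = 3 each). DESeq2 and limma-voom also called 0 of them lower, as did an unadjusted p under 0.05.

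Factors that work with the ribosome were called in both directions, as were genes in general. Over all genes tested 21.4% were called higher and 22.6% lower (14.7% and 30.2% with library size alone). These shares stand beside the counts of each list. Of 15 translation factors 2 rose and 3 fell (0 and 5 with library size alone). The elongation factor genes Gfm1 and Tufm had log2 fold changes of 0.18 and 0.17, and the membrane insertase gene Oxa1l fell by 0.28 on the log2 scale. Of the 2 that rose 1 was left without control replicate 4, stretch replicate 1 or stretch replicate 4. Tufm lost its call without control replicate 2, control replicate 4, stretch replicate 1 or stretch replicate 4 (edgeR adjusted p between 0.05002 and 0.155; 0.0110 to 1.00 over all alternatives). The other 2 that fell were Mtrf1, a gene of the release factor family, and 2810006K23Rik, with log2 fold changes of -0.44 and -0.60. Of 29 genes for assembly of the ribosome and modification of its RNA, 7 rose and 3 fell (5 and 8 with library size alone). Rpusd4, a pseudouridine synthase, reached 37.4 ± 2.31 CPM in stretch and 24.3 ± 0.34 CPM in control libraries (log2 fold change 0.62 ± 0.06 SE, edgeR adjusted p = 0.000134), and the methyltransferase gene Trmt61b had a log2 fold change of 0.67 ± 0.10. The 3 that fell were Ftsj2, Rpusd3 and Ybey. Of this list 0 genes were called lower without control replicate 3 or stretch replicate 4, and 1 without control replicate 4 or stretch replicate 2. Ftsj2 lost its call without control replicate 3, control replicate 4, stretch replicate 1 or stretch replicate 4, and Ybey without any 1 of control replicates 2 and 3 and stretch replicates 1, 2 and 4 (edgeR adjusted p between 0.0523 and 0.0991; 0.0114 to 0.376 over all alternatives of both).

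Of 17 tRNA synthetases of mitochondria 2 rose and 5 fell, with a median log2 fold change of -0.15 (2 and 7, and -0.24, with library size alone; 2 and 3 without stretch replicate 1). Mars2 rose to 15.3 ± 1.12 CPM in stretch against 9.02 ± 0.54 CPM in control libraries, and Yars2 also rose, whereas Aars2 fell by 0.58 on the log2 scale. Of 10 genes for mitochondrial transcription and RNA handling 5 rose and 1 fell (3 and 1 with library size alone). Rg9mtd1, a subunit of mitochondrial RNase P, and the helicase gene Supv3l1 had log2 fold changes of 0.62 ± 0.05 and 0.34 ± 0.06 (SE). The polymerase gene Polrmt fell by 0.30 on the log2 scale and lost its call without control replicate 4 (edgeR adjusted p = 0.0517; 0.00578 to 0.365 over all alternatives).

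Among 12 regulators of mitochondrial gene expression 5 rose and 2 fell (4 and 3 with library size alone), and 1 was called lower when any control library or stretch replicate 4 was left out. Pprc1, a coactivator related to PGC-1, was at 151.8, 143 and 157 CPM in stretch replicates 1, 2 and 4, against 86.6, 95.9 and 88.1 CPM in control replicates 2, 3 and 4 (log2 fold change 0.74 ± 0.06 SE, edgeR adjusted p = 7.14e-05). Myc reached 218 ± 15.9 CPM in stretch and 129 ± 3.90 CPM in control libraries (log2 fold change 0.75 ± 0.06 SE). Yy1 and the GABP subunit gene Gabpb1 rose with log2 fold changes of 0.29 and 0.23, while Nrf1 and Gabpa, at 0.15 and 0.02, did not pass. Mycn, scarce at 8.14 ± 2.24 CPM in stretch and 1.51 ± 0.16 CPM in control libraries, had the largest change of this list (log2 fold change 2.42 ± 0.21 SE, edgeR adjusted p = 0.000100). The lysosomal regulator gene Tfeb and Gabpb2 fell, and Gabpb2 lost its call when any library other than stretch replicate 2 was left out (edgeR adjusted p between 0.0790 and 0.126; 0.00925 to 1.00 over all alternatives). The import machinery, through which the members' products enter mitochondria, had 25 tested genes, of which 14 rose, 0 fell by edgeR and 11 did not pass (12 and 2 with library size alone). The intermembrane space chaperone gene Timm8a1 had the largest change, with 43.1 ± 4.19 CPM in stretch and 21.3 ± 1.91 CPM in control libraries (log2 fold change 1.02 ± 0.09 SE), and the channel subunit gene Timm17a had a log2 fold change of 0.51 ± 0.05. At an unadjusted p under 0.05 Timm17b and Timm22 were lower, with log2 fold changes of -0.17 each, and 1 import gene was called lower without control replicate 2. DESeq2 and limma-voom called 0 lower.

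**Figure D4:**
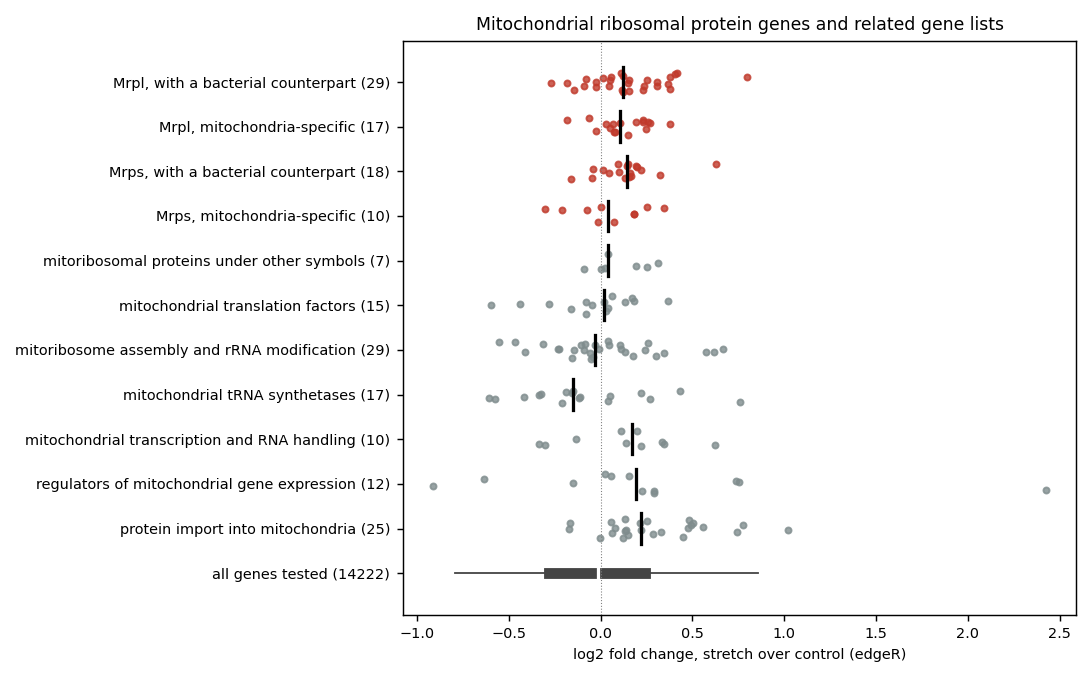
Log2 fold change of stretch over control (edgeR) for members by subunit and class (red) and for 7 lists of genes that work with the mitochondrial ribosome (grey), 1 point a gene, with a black bar at each median. Mrpl55 and Mrps36, assigned to neither class, are not shown. The lowest row gives all 14222 genes tested, with the median (white), the middle quartiles (thick) and the 5th to 95th percentile (thin). Each member group has its median above 0 and the import list the highest, at 0.22, while the tRNA synthetases have the lowest, at -0.15. With library size alone as scaling the medians of the mitochondria-specific Mrps genes (-0.05), of the proteins under other symbols (-0.05) and of the translation factors (-0.08) are below 0 as well.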

How the data were processed

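The authors' deposited table gives whole-number counts for each gene in 3 stretch and 3 control libraries. TopHat2 2.1.0, featureCounts, edgeR and the build GRCm38 (mm10) appear in the submitters' processing notes. No source used here says which tool made which values, or gives the annotation, the filters or the strand setting. The authors computed RPKM values with the gene length of the same table, per the file headers. The authors' deposited table holds log2 fold changes, a likelihood ratio score and a p-value with its FDR.

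The test was run in edgeR 4.0.16 under R 4.3.3 (TMM, filterByExpr, quasi-likelihood F test, Benjamini-Hochberg adjustment over 14222 genes, call at an adjusted p under 0.05). The SE is the log2 fold change divided by the square root of F, and CPM are TMM-scaled. The steps were checked on simulated data.

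The members and the lists were chosen with earlier results of these data known. The genes named are, by subunit and direction, the 5 called members of smallest p, the 5 with the largest change, 5 members fixed by their role, and up to 2 called genes a direction in each other list. Other names were added to account for the family, and 1 gene that the rule names is not reported here. Both groups have replicates numbered 2 and 4, and nothing in the labels ties equal numbers to each other. The settings changed were the scaling (RLE, upper quartile, library size alone), the filter (3 others), the tool (DESeq2 1.42.0, limma-voom with limma 3.58.1), the dispersion (robust), a 1.2-fold minimum (glmTreat), a replicate block and the set of libraries (each left out in turn). Symbols were matched to GENCODE M21 and RefSeq (GRCm38.p6) by name.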

Additional observations from a re-analysis of the deposited data

How the results depend on the processing

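None of the 54 genes examined singly (the 29 called members, Mrps18c, Mrps36 and 23 list genes) changed sign under any of the 17 alternatives. Of the 29 called members 19 kept their call with each library left out, and 4 (Mrpl17, Mrps18b, Mrpl32 and Mrpl35) kept it under all 17. With library size alone 12 members were called higher and 9 lower (3 and 4 in the small subunit, 9 and 5 in the large), 26 list genes were lower, the members' median log2 fold change was 0.029 and the ratio of summed levels 1.04. Over all genes 14.7% were then higher and 30.2% lower. Against a 1.2-fold minimum (glmTreat) 4 members were called higher and 0 lower (1 and 0 in the small subunit, 3 and 0 in the large), against 8.51% and 9.33% of all genes, and of the list genes 18 were higher and 4 lower. DESeq2 called 1 small subunit gene lower, and did not call Ybey and Gabpb2 (adjusted p = 0.0604 and 0.0736). With the replicate block 1 member was lower (1 in the small subunit, 0 in the large), since Mrpl14 and Mrps34 were not called (adjusted p = 0.0677 and 0.0825), 9 list genes were lower and the median was 0.17; the deviations of same-numbered libraries correlated at r = 0.21 and 0.11, over 2 pairs only. Of members without exon overlap with another coding gene, chosen after seeing the data, 0 were lower in the main fit and 2 with library size alone. With single libraries left out, members called higher ranged from 18 (without control replicate 2 or stretch replicate 4) to 25 and members called lower from 1 (without control replicate 4) to 4. In the small subunit 4 to 8 were higher and 1 to 2 lower, and in the large subunit 14 to 18 higher and 0 to 2 lower. List genes called higher ranged from 35 to 40 and lower from 8 (without control replicate 3; 9 without control replicate 4) to 11. The median ranged from 0.10 to 0.16 and the ratio of summed levels from 1.10 to 1.13. The causes were not tested. With 3 libraries a group, the smallest increase called was 0.15 on the log2 scale.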
